A study of Mus musculus with 2 samples.

Results

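The Sox, T-box and Gata genes examined here are transcription factor genes of the deposited GRO-seq table of C2C12 myoblasts, with the cofactor genes Zfpm1 and Zfpm2 added. Members were found by gene symbol alone: Sox followed by a number, Tbx followed by a number, Gata1 to Gata6, the T-box genes T, Eomes and Tbr1, and both Zfpm genes. This gave 52 RefSeq entries of 41 gene symbols, out of 24165 entries of 20128 symbols. C2C12 is a long-established mouse myoblast cell line, and the only group was untreated C2C12 myoblasts, grown in serum-containing medium to a confluency of 80%. GRO-seq, in which nuclear polymerases extend their transcripts with bromouridine so that nascent RNA can be captured and sequenced, was performed on 2 replicate libraries, each from nuclei of 4 plates. Both were pooled by the authors into 1 gene activity per entry, in RPKmM (an RPKM over mappable bases that counts sense-strand reads of the gene body, which excludes the first 1 kb of the gene). Entries that the authors could not separate from the background of gene deserts carry the word Inactive instead of a value. The table gives 1 pooled value per entry, with neither read counts nor mappable lengths, so no standard deviation, counting interval or test between genes was computed, and differences below have no replicate check.

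Sox proteins bind DNA in the minor groove through an HMG box and bend it, and they commonly act with partner factors. T-box proteins bind DNA through a T-box domain and pattern the mesoderm, limbs and heart. Gata proteins bind the sequence that gave them their name through zinc fingers and are known for blood, heart and endoderm, and the Friend of Gata proteins Zfpm1 and Zfpm2 bind to a Gata zinc finger as cofactors. Skeletal muscle arises from paraxial mesoderm, and members of each family are known as regulators of other mesodermal tissues such as cartilage, heart and blood.

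The label of the cells was compared with marker genes. All 8 of 8 myoblast markers were active, from 0.25 RPKmM for Fgfr4 to 72.5 for the muscle intermediate filament gene Des, and their summed activity was 118. MyoD itself, the gene Myod1, was at 2.39 and Myf5 at 5.03. Of the other cell types in which Sox, T-box and Gata genes are known to act, 2 of 5 endothelial, 1 of 4 blood, 1 of 3 neural and glial, 1 of 5 chondrocyte and 1 of 3 cardiomyocyte markers were active, and none of 3 markers of pluripotent cells and early mesoderm. Their summed activities were 0.02, 0.01, 0.01, 0.04 and 0.03 for the first 5 of these lists. The highest of the markers counted here were Matn3 of cartilage at 0.04 and Myh6 of the heart at 0.03, and Pecam1, Tek, Klf1 and Gfap were at 0.01. Some blood and cartilage genes outside these short marker lists were higher, with Runx1 at 10.56, Col11a2 at 0.18, Epor at 0.08 and Nfe2 at 0.06. Others outside them were Inactive, and all are given with the targets below. Inactive were the endothelial genes Cdh5, Kdr and Tie1, the blood genes Ptprc, Spi1 and Tal1, the neural genes Neurod1 and Olig2, the cartilage genes Col2a1, Acan, Matn1 and Comp, the cardiac genes Nkx2-5 and Myl7, and the early embryonic genes Pou5f1, Nanog and Mixl1.

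Of the 52 member entries, 32 were active (61.5%), beside 70.2% of all entries in the table. By symbol, 24 of 41 member genes had an active entry (58.5%), beside 68.7% of all symbols, and no member gene had both active and inactive entries. The active member entries had a median activity of 0.21 RPKmM (quartiles 0.0175 and 0.795), whereas all active entries had a median of 0.87 (quartiles 0.22 and 1.99). An activity of 1 or more was listed for 5 member entries (9.62%), beside 32.3% of all entries. Active but below 0.1 were 14 member entries (26.9%), beside 13.0% of all entries, and 6 of these 14 belong to Sox6. With the highest entry of each gene alone, the median over the 24 active member genes was 0.385.

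**Figure D1:**
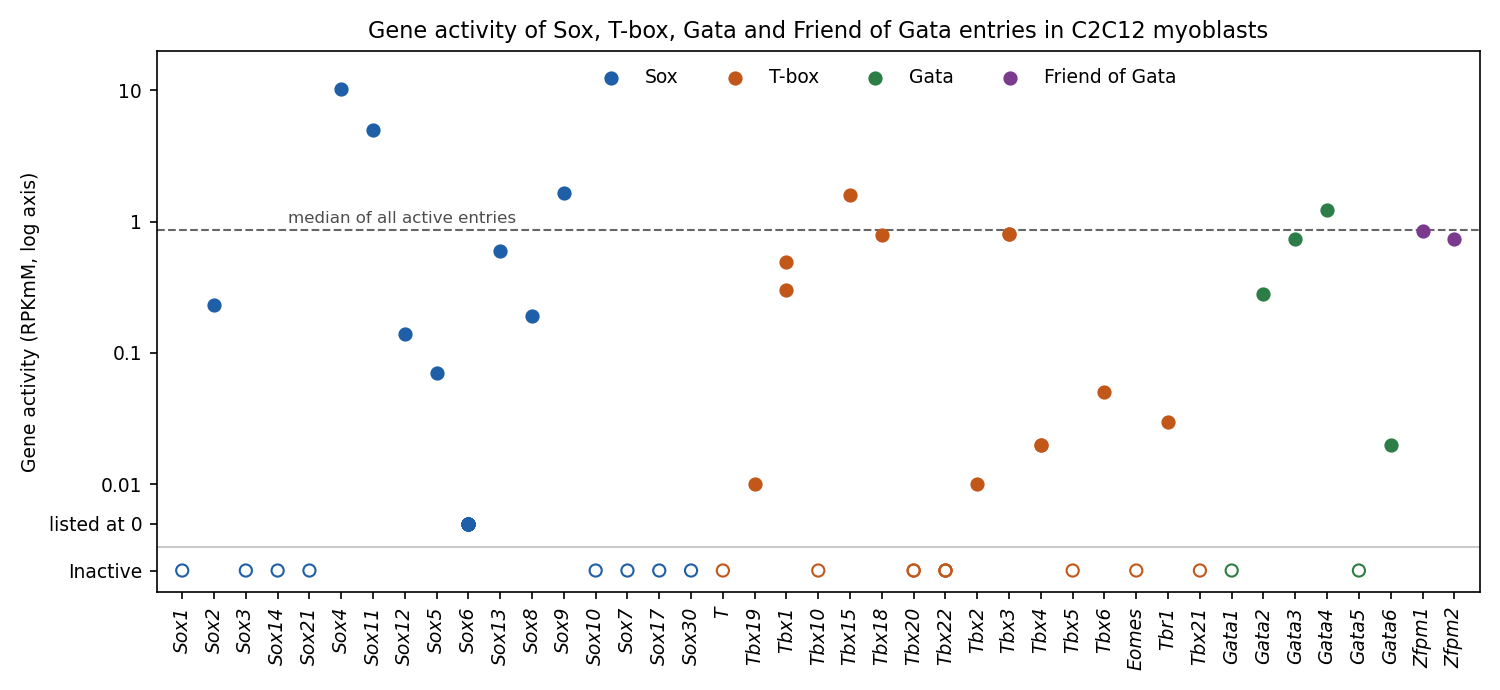
Gene activity in RPKmM (vertical log axis) of each of the 52 entries, with genes ordered by family and subfamily. Each filled point is 1 active entry and each open point 1 Inactive entry, drawn in a lane of its own below the values; entries of a gene with the same value coincide, and values listed at 0 are drawn just below the lowest printed step, 0.01. Sox4 at 10.16 and Sox11 at 5 stand highest, and only these, Sox9, Tbx15 and Gata4 lie above the dashed median of all active entries, 0.87.

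Of the Sox genes, 9 of 17 were active (52.9%), beside 68.7% of all symbols, and the highest activities were those of Sox4 and Sox11, both of group C. Sox4, a group C factor of progenitor and mesenchymal cells, had 10.16 RPKmM (RefSeq NM_009238), which was higher than 97.2% of all active entries. Sox11, its close relative (NM_009234), had 5, higher than 92.3%. Sox12, the remaining group C gene (NM_011438), was at 0.14, above 21.0% of active entries, so the group C genes were unlike in level although all 3 were active. Sox4 and Sox11 are short genes, annotated on the minus strand of mm9 at chr13:29040788-29045582 and chr12:28025562-28027574, and the value of such a gene rests on the few kilobases, or less, that follow the first 1 kb.

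Their promoters are shown because Sox4 and Sox11 were the most active members. Each sequence covers 250 bases before and 50 after a RefSeq start, was taken from the RefSeq promoter table of GRCm38.p6 and was placed on mm9 by an exact match. The 5′ to 3′ sequence is in the direction of transcription, and capitals mark CCAAT or its reverse complement ATTGG.
Sox4 (chr13:29045519-29045818, minus strand): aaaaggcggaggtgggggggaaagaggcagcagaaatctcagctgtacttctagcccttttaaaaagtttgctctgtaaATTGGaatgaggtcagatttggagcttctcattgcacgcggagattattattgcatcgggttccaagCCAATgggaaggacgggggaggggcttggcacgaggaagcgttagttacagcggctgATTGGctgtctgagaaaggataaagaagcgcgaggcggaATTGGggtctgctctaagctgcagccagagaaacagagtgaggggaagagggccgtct
Sox11 (chr12:28027534-28027833, minus strand): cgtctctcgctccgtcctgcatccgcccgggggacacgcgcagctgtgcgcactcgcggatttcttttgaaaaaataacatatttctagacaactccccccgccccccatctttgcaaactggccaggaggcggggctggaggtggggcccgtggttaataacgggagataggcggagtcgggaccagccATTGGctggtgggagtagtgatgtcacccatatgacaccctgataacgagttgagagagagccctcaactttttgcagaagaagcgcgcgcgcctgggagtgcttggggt
The Sox4 window holds 4 of these sites and that of Sox11 holds 1. Among the other member promoters matched, 1 of the 6 Sox6 starts, a gene listed at 0 RPKmM, also holds 4. At least 1 CCAAT on either strand was found in 37.4% of the 32851 promoters of that table, and at least 4 in 1.06%. CpG dinucleotides numbered 12 for Sox4 and 21 for Sox11, against a median of 7 (quartiles 3 and 20) over these promoters.

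In group E, Sox9, the factor of cartilage and testis formation, had an activity of 1.65 RPKmM (NM_011448; chr11:112643538-112649074, plus strand), above 69.3% of active entries. Sox8, which is known from satellite cells among other tissues, was at 0.19, and Sox10, the factor of neural crest and glia, was Inactive. Group D genes, whose products have a coiled coil and no activation domain of their own, were all active, at unlike levels. Sox13 had 0.60, above 40.3% of active entries. Sox5, the partner of Sox9 in cartilage, had 0.07.

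Sox6, known as a repressor of slow-fibre genes in muscle, has 6 entries, and each was called active and listed at 0 RPKmM, that is, rounded from below 0.005. Only 154 of the 16957 active entries (0.908%) are listed at 0. The gene spans 567401 bases on the minus strand (chr7:122614858-123182258), and the 6 entries overlap and share reads. Their RefSeq starts in the promoter table hold from 2 to 13 CpG.

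The other Sox groups were mostly Inactive. In group B1, Sox2, the factor of pluripotent and neural progenitor cells, had 0.23 RPKmM, above 25.2% of active entries, while its relatives Sox1 and Sox3 were Inactive. Sox2 (chr3:34548927-34551383) lies wholly within the noncoding gene Sox2ot, which runs 578182 bases on the same strand, so sense-strand reads over Sox2 cannot be assigned to either; Sox2ot itself was active and listed at 0. The neural group B2 genes Sox14 and Sox21, the endothelial and endodermal group F genes Sox7 and Sox17, and the testis gene Sox30 were all Inactive. Sox15, Sox18 and Sry were not analysed here.

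Of the T-box genes, 9 of 16 were active (56.2%, beside 68.7% of all symbols), from 0.01 to 1.58 RPKmM. In the Tbx1 subfamily, Tbx15, a regulator of the limb skeleton and of glycolytic muscle fibres, had 1.58 (NM_009323; chr3:99044304-99158182, plus strand), above 68.0% of active entries and the only T-box entry at 1 or more. Tbx18, known from somites, epicardium and the sinus node, had 0.79. Tbx1, a regulator of the pharyngeal arches and their muscles, had 2 entries that differed, 0.49 for NM_001285476 and 0.30 for NM_001285472, a ratio of 1.63. This was the only member gene whose active entries were printed with different values. Tbx20 of the heart, Tbx22 of the palate and Tbx10 were Inactive in all of their entries, of which there are 2, 3 and 1.

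The Tbx2 subfamily is arranged as neighbouring pairs, and its genes on chromosome 5 differed. There Tbx3, a repressor in limb and heart development, had 0.81 RPKmM in both entries, whereas Tbx5, the forelimb and heart factor that begins 149.9 kb past its end, was Inactive. On chromosome 11, Tbx2 had 0.01 and Tbx4, the hindlimb factor whose longest model begins 44.5 kb away, had 0.02 in both entries. The RefSeq promoter window of Tbx4 (chr11:85710017-85710316) lies inside that model, farther from Tbx2. The values 0.01 and 0.02 lie 1 printed step apart, and without replicate values the genes were not ordered. No other gene of the table lies between the members of either pair in the annotation used.

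The T-box genes of early mesoderm, cortex and lymphocytes were low or Inactive. Tbx6, a factor of the paraxial mesoderm from which muscle arises, had 0.05 RPKmM, and T, the Brachyury gene of nascent mesoderm, was Inactive. Tbx19, a pituitary factor, had 0.01. Tbr1 of the cortex had 0.03, and its relatives Eomes and Tbx21, the latter being the T-bet gene of lymphocytes, were Inactive.

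Of the Gata genes, 4 of 6 were active (66.7%), near the 68.7% of all symbols. Gata4, a factor of heart and endoderm, had 1.23 RPKmM (NM_001310610; chr14:63817759-63890529, minus strand), above 60.1% of active entries. Its relatives differed from it, as Gata6 had 0.02 and Gata5 was Inactive. Gata3, known from T cells and many epithelia, had 0.74, and Gata2, a factor of blood progenitors, had 0.28, while the erythroid factor Gata1 was Inactive. By these single values the order of the 4 active Gata genes was Gata4, Gata3, Gata2 and Gata6. The longest annotated model of Gata3 overlaps a further gene on the same strand, 9230102O04Rik, which was at 0.02. That gene (chr2:9804668-9811167) lies wholly upstream of the promoter window at the RefSeq start of Gata3 (chr2:9800178-9800477, minus strand).

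Both Friend of Gata genes were active. Zfpm1, known with Gata1 in blood, had 0.85 RPKmM, above 49.2% of active entries, and Zfpm2, known with Gata4 in the heart, had 0.74, above 45.6%. Both values lay just below the median of all active entries, 0.87. In the annotation used, Zfpm1 also lies within Gm20388, a model of 4434882 bases on the same strand. Without replicate values, the order of genes this close, such as Zfpm1, Tbx3 and Tbx18, cannot be told.

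The share of active entries among the members lay near those of the Hox cluster and forkhead genes, other families of developmental factors, but the level of the active entries was lower. Of 42 Hox entries 59.5% were active, and of 48 forkhead entries 54.2%, beside 61.5% for the members and 70.2% of all entries. The median of active entries was 1.25 RPKmM for Hox, 0.69 for forkhead and 0.21 for the member entries. By the highest entry of each gene these medians were 1.25, 0.81 and 0.385. Hox entries at 1 or more made up 31.0% and forkhead entries 20.8%, beside 9.62% for the members and 32.3% for the whole table. These are counts in 1 pooled table and no difference between the families was tested.

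**Figure D2:**
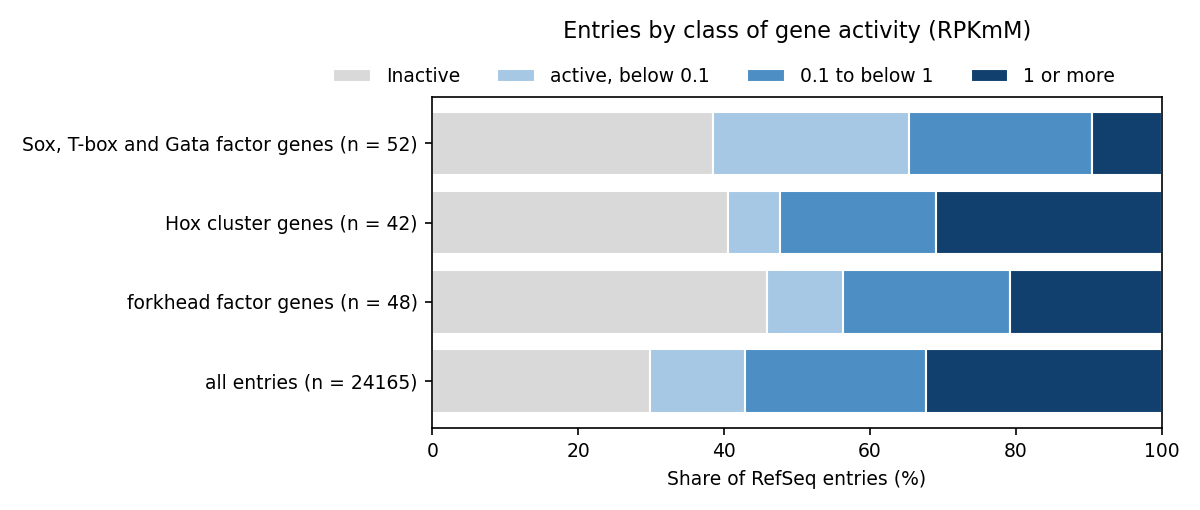
Share of RefSeq entries, in percent of each set on the horizontal axis, that were Inactive, active below 0.1 RPKmM, from 0.1 to below 1, and at 1 or more, for the 52 member entries, 42 Hox entries, 48 forkhead entries and all 24165 entries. The member bar has the widest class below 0.1, 26.9%, and the narrowest class at 1 or more, 9.62%.

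The active call compares reads with a background density, and a long gene offers more bases over which to count them, so member activities were set beside gene length. Length was taken from the GENCODE vM1 annotation of mm9 for 40 of the 41 members and 17578 of the 20128 symbols. Active members had a median model length of 18.5 kb, from 2.01 kb for Sox11 to 953.6 kb for Sox5. The RefSeq promoter window of Sox5 (chr6:143895577-143895876, minus strand) lies well inside its model (chr6:143776945-144730497). An entry from that start is therefore much shorter than 953.6 kb. The models of Gata1, Gata3, Tbx4 and Tbr1 also extend upstream of their RefSeq starts. The 16 Inactive members had a median of 8.82 kb, the longest being 51.1 kb for Tbx20. Over all genes placed, the medians were 24.1 kb for active and 14.5 kb for Inactive genes, and 107.0 kb for the 108 active genes listed at 0. All 4 members of 100 kb and over (Sox5, Sox6, Zfpm2 and Tbx15) were active, in a class in which 74.1% of all genes were. Of the 19 members under 10 kb, 9 were active, in a class in which 60.0% of all genes were. An activity of 0.02 or less was listed for 5 of the 24 active members (Sox6, Tbx2, Tbx4, Tbx19 and Gata6), and for 10.0% of all active genes placed. The part of length in these calls was not tested.

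**Figure D3:**
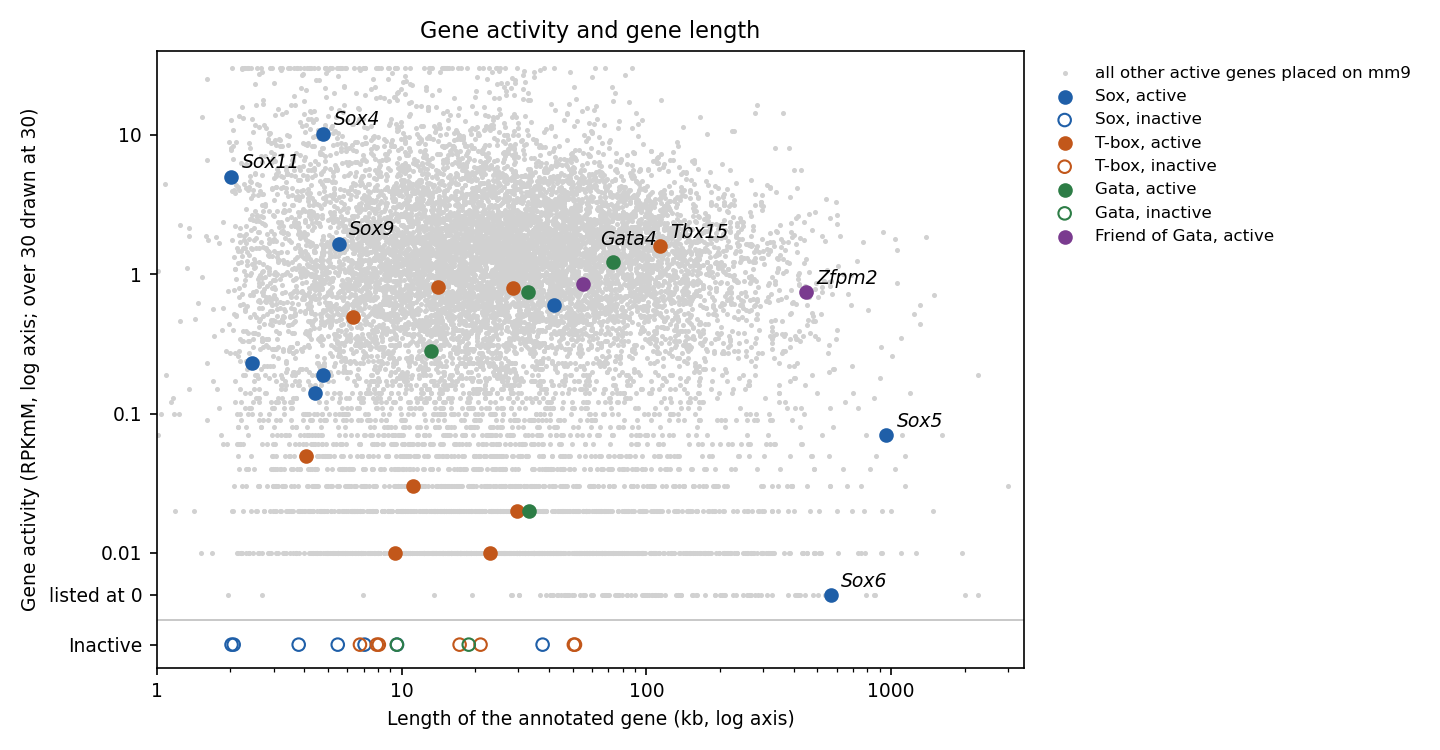
Gene activity in RPKmM (vertical log axis, with Inactive members in a lane of their own and values over 30 drawn at 30) against annotated gene length in kb (horizontal log axis). Grey points are the other active genes placed on mm9, filled coloured points the 24 active members at their highest entry, and open points the 16 Inactive members that could be placed. By model length, Sox4 and Sox11 are short and high, Sox5 and Sox6 are long and low, and Zfpm2 is long at 0.74. The RefSeq start of Sox5 lies inside its model, so an entry from that start is shorter than drawn.

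Distances to other genes of the table were measured between annotated ends, leaving out genes that overlap. Only genes that the annotation holds under the symbol of the table could be counted, so Sox5os3, Tbx3os2 and Gata5os, transcripts of the table named after members, were not. Of the 40 members placed, 3 (7.50%) overlap another gene placed in this way, Sox2 with Sox2ot, Gata3 with 9230102O04Rik and 4930412O13Rik, and Gata6 with 1010001N08Rik, beside 18.2% of all 17578 genes placed. The overlaps of Gata3 come from its longest model, as both genes lie upstream of its RefSeq start. The nearest gene that did not overlap lay at a median distance of 24.7 kb for members and 9.15 kb for all genes. It was over 100 kb away for 10 members (25.0%), among them Sox2 and Gata6, and for 7.48% of all genes. With overlapping genes counted as 0 kb away, the medians were 20.3 and 5.24 kb, and 8 members (20.0%) and 6.06% of all genes were over 100 kb from another gene. Without overlapping genes, the median distance was 22.1 kb for active and 25.9 kb for Inactive members. The nearest gene that did not overlap was active for 15 of the 24 active and 11 of the 16 Inactive members, and for 82.0% of all active and 51.3% of all Inactive genes. An example is Tbr1, at 0.03 RPKmM, whose longest model lies 2.55 kb from the proteasome gene Psmd14 at 7.45.

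A CpG-rich promoter was found at both active and Inactive members, which the following windows show, with CpG in capitals. Sox1 was Inactive and Zfpm1 was at 0.85 RPKmM, and each window holds 37 CpG, a number reached by 5.58% of all promoters of the table.
Sox1 (chr8:12395269-12395568, plus strand): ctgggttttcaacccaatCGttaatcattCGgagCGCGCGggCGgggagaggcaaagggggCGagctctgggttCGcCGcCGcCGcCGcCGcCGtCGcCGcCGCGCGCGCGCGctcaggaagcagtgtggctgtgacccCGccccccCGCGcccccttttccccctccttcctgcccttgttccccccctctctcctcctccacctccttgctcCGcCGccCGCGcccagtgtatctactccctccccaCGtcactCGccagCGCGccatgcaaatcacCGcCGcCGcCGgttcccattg
Zfpm1 (chr8:124805791-124806090, plus strand): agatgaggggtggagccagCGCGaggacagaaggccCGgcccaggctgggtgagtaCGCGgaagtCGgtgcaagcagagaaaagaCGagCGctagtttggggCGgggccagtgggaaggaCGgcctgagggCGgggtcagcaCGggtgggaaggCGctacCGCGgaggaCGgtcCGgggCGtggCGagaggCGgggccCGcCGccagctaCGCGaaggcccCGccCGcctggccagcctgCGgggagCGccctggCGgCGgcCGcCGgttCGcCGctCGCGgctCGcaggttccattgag
A pair of T-box genes has fewer CpG in these windows. Tbx6, at 0.05 RPKmM, has 7 CpG, the median of all promoters, which 51.4% of all promoters do not exceed, and Tbx10, Inactive, has 4, which 38.0% do not exceed.
Tbx6 (chr7:133924747-133925046, plus strand): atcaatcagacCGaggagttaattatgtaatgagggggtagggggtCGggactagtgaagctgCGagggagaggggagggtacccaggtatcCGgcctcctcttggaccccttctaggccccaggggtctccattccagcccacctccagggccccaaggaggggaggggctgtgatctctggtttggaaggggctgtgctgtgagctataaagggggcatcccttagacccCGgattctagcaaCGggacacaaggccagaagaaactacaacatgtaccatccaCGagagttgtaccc
Tbx10 (chr19:3992502-3992801, plus strand): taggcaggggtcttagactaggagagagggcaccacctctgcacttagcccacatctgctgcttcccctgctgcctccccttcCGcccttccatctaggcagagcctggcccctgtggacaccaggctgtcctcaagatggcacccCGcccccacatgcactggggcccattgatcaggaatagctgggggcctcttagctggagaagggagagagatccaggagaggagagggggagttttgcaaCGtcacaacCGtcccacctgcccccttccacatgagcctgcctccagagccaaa
The Tbx6 window also holds the sequence TATAAA, found on either strand in 13.6% of all promoters. Promoter sequences were matched for 29 of the 41 members (70.7%), which is below the 80% needed for a check over the whole set. The comparison of CpG content between active and Inactive members is therefore void, and only single promoters are described. The 12 genes with no entry are Gata4, Gata6, Sox3, Sox7, Sox9, Sox10, Sox17, Tbx2, Tbx3, Tbx5, Tbx15 and Zfpm2.

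Genes that share a DNA-binding domain with the members but not the name had higher medians of active genes than the members. Of 20 other HMG box genes 17 were active (85.0%), beside 68.7% of all symbols, with a median of 1.81 RPKmM for the active ones. They ranged from 0.49 for Tcf7, a Wnt effector, to 9.26 for Ssrp1, a histone chaperone subunit, and Tox, Tox2 and Tox3 were Inactive. All 10 genes of a list with a T-box or Gata-type finger were active, again beside 68.7% of all symbols. Their median was 2.19, from 0.17 for Zglp1 to 4.03 for Mta2, a subunit of the NuRD deacetylase complex. Mga, the Max partner that has a T-box, was at 2.39, above every T-box member.

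Targets and partners of the factors were listed by tissue. The shares of active genes in these lists are to be read beside 68.7% of all symbols. Of 14 Sox partners and cartilage targets, 5 were active (35.7%), and Col2a1 and Acan, which Sox9 is known to activate in chondrocytes, were Inactive beside Sox9 at 1.65 RPKmM. Also Inactive were the cartilage genes Col9a1, Col9a2, Matn1, Hapln1 and Comp and the POU factor genes Pou3f2 and Pou5f1, whose products are known partners of Sox proteins. Active in this list were Wwp2, a ubiquitin ligase gene, at 1.39, and the cartilage matrix genes Col11a2 at 0.18 and Col9a3 and Matn3 at 0.04. The list median of 0.18 over active genes has the Wnt effector Ctnnb1 at 18.1 as its highest value. Of 13 Gata partners and blood targets 10 were active (76.9%), with a median of 1.80. The highest in it were the chromatin remodeller gene Chd4 at 26.0, the zinc finger gene Zfp281 at 15.5 and the blood factor gene Runx1 at 10.56, followed by the cofactor gene Ldb1 at 7.18. The histone-binding gene Rbbp4 was at 2.83 and the deacetylase gene Hdac1 at 0.77. The remaining blood genes of the list were lower, with Epor at 0.08, Nfe2 at 0.06, Lmo2 at 0.02 and Klf1 at 0.01, and the erythroid targets Alas2 and Slc4a1 and the blood factor gene Tal1 were Inactive.

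Of 12 genes in the heart list, which includes Tbx5 and Gata4 themselves, 7 were active (58.3%), with a median of 0.20 RPKmM. The cardiac factors Nkx2-5, Hand1 and Hand2 and the atrial myosin gene Myl7 were Inactive, as was Tbx5, beside Gata4 at 1.23, while Gja1, a broadly expressed connexin gene, had 9.51. Of 8 genes counted in the pharyngeal muscle list, which includes Tbx1, 6 were active (75.0%) with a median of 0.62. The homeobox gene Six4 was the highest of them at 3.72, and Tcf21 and Isl1 were Inactive. Of 13 fibre-type genes 12 were active (92.3%) with a median of 0.505, and Myl2, a slow and cardiac myosin light chain gene, was Inactive. Among the slow-fibre genes, Tnnc1, a troponin C gene, had 54.9, the troponin genes Tnni1 and Tnnt1 both had 0.73, Myh7, the slow myosin heavy chain gene, had 0.19, and Myh7b had 0.05. Of the other myosin heavy chain genes, the embryonic Myh3 had 5.28, and the fast genes Myh1, Myh4 and Myh2 had 1.56, 0.14 and 0.01. For comparison, the median of all active symbols at their highest entry was 0.87.

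**Figure D4:**
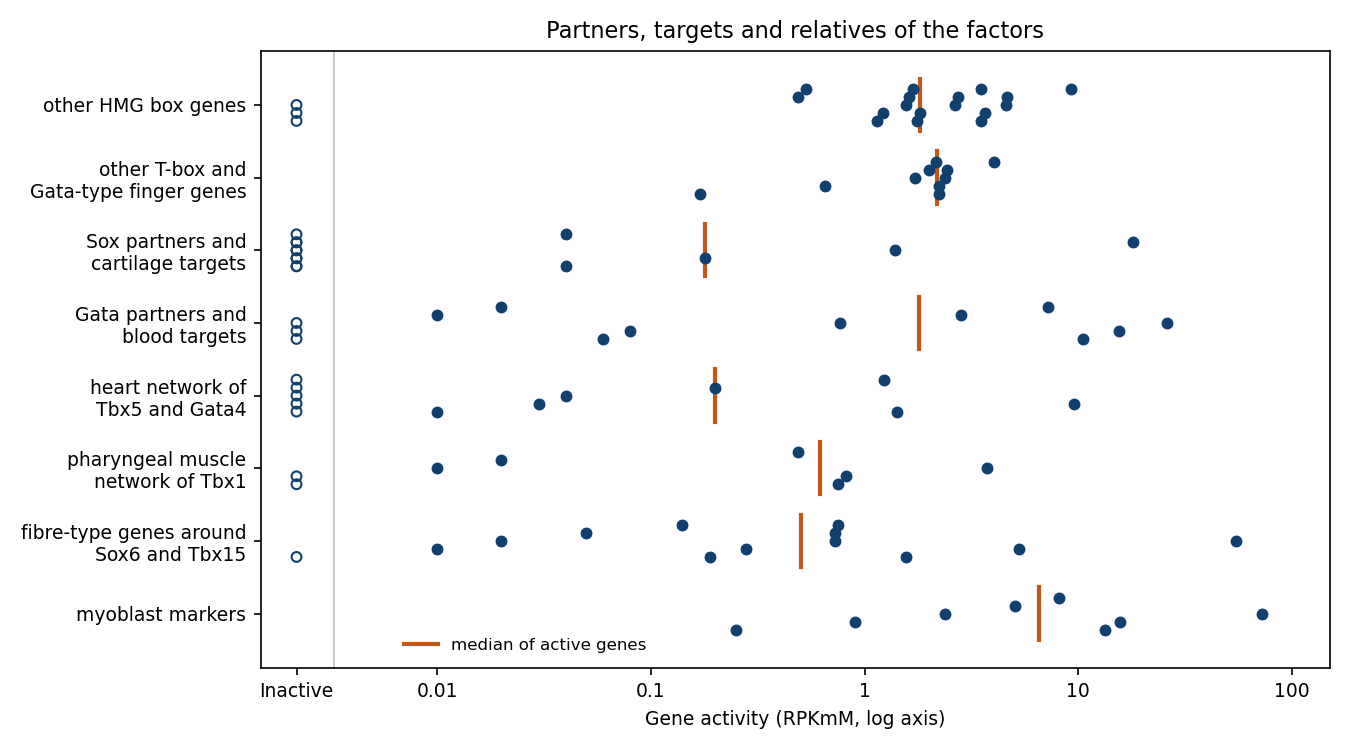
Gene activity in RPKmM (horizontal log axis, Inactive genes as open points in a lane at the left) of each gene at its highest entry, by list; vertical offsets within a row only separate the points, and the orange bar is the median of the active genes. The other HMG box genes and the other T-box and Gata-type finger genes centre on 1.81 and 2.19, the heart and cartilage lists on 0.20 and 0.18, and the myoblast markers on 6.56.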

How the data were processed

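The authors prepared 2 GRO-seq libraries of C2C12 myoblasts. As their methods and labels give it, base calls were made with CASAVA 1.8, reads were mapped to mm9 with Bowtie2, reads that failed were trimmed and realigned, unique reads outside rRNA and tRNA repeats were kept, and the replicates were pooled. The authors deposited gene activity in RPKmM (RPKM over mappable bases) with 2 decimals for RefSeq genes of 2 kb or longer, or Inactive where the FDR against gene deserts was not below 0.01. Pooling hides variation between libraries, and rounding makes the lowest values coarse.

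Counts, medians and percentiles were computed with Python 3.11.15, numpy 2.4.6 and pandas 2.3.3 and plotted with matplotlib 3.10.9; the functions were tested on simulated data. A gene in a list was taken at its highest entry. Without replicate values, no test was run. All members are named, and of each list the highest and the Inactive genes; other genes named were chosen after their values were seen, as were the promoters shown, the count of CCAAT and the comparisons of length and neighbours. Members, lists and markers were chosen with earlier results of these data known. Some genes of the lists are not reported here and were left out of their counts and medians. Positions and lengths are those of the longest GENCODE vM1 gene model on mm9 (NCBIM37), which can differ from the RefSeq entries. All 38 member promoters matched mm9 exactly and once, within 500 kb of the gene or, for Sox1, on its chromosome. Protein sequences were not used here. Alternatives were 1 entry per gene, other summaries and other thresholds.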

Additional observations from a re-analysis of the deposited data

How the results depend on the processing

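Of 24 alternative values over 16 results, 17 stayed within 1.5 times the main value. The median of active member entries, 0.21 RPKmM, moved to 0.385 with the highest entry of each gene, to 0.0913 as a geometric mean with a pseudocount of 0.001, and to 0.395 with activities of at least 0.01; it was also 0.395 without Sox6, an alternative chosen after seeing the data, so the 6 entries of that gene set this shift. With the highest entry of each gene, 0.385 stood beside 0.87 for all active symbols. For the geometric means and the restricted sets, the same summary was not computed over all entries. Active Sox entries numbered 14, and 9 with 1 entry per gene. Member entries at 1 RPKmM or more numbered 5, and 12 at a threshold of 0.5. Active member entries numbered 32, and 26 when values listed at 0 were counted as Inactive. Counting overlapping genes as 0 kb away was also chosen after seeing the data. Leaving out a replicate could not be done on pooled values. No paired analysis was possible because the table holds no value per replicate. Values below 0.1 are coarse in the printed decimals, and the table gives no read counts behind them.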

Other observations

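Transcripts named after member genes were also listed. Sox5os3 had 0.02 RPKmM beside 0.07 for Sox5, and Tbx3os2 had 0.01 beside 0.81 for Tbx3. Gata5os was Inactive, as was Gata5. Sox2ot, which encloses Sox2, was active and listed at 0 beside 0.23 for Sox2. These are single pooled values that carry no error.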
